A study of Rattus norvegicus with 9 samples.

Results

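Nfe2l2, the gene of the transcription factor Nrf2, and 4 of its best known antioxidant target genes, Hmox1, Nqo1, Gclc and Gclm, were followed in PC12 cells under oxygen-glucose deprivation and reoxygenation (OGD/R), with and without miR-483-5p mimics. The 5 genes were taken by their Ensembl identifiers (Nfe2l2, ENSRNOG00000001548; Hmox1, ENSRNOG00000014117; Nqo1, ENSRNOG00000012772; Gclc, ENSRNOG00000006302; Gclm, ENSRNOG00000013409), and all 5 were found among the 23426 features listed. The files give identifiers without symbols, and 0 of the 23426 matched the RefSeq gene table used here. The pairing of the 5 identifiers with symbols therefore comes with the choice of genes and was not checked.

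PC12 is a line derived from a pheochromocytoma, a tumour of the chromaffin cells of the rat adrenal medulla, and is used as a model of neurons. In all groups the cells were of the differentiated form. The 9 libraries, each from poly-A RNA, fell into 3 groups of 3. Control cells had no OGD/R by their label. OGD/R cells spent 4 h in medium without glucose at 1% oxygen and then 6 h in normal medium with reoxygenation. The third group, called mimics here, received the same OGD/R 48 h after transfection with miR-483-5p mimics, which are synthetic copies of this microRNA. Transfection is mentioned for the mimics group alone, so transfection and the microRNA cannot be told apart in comparisons with it. All groups came from the same cell line, and separate cultures are not stated, so the tests measure the spread between libraries, which may be technical. Markers of chromaffin cells and of other cell types were not looked up, because their identifiers are not named here.

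The mature rat microRNA is shown because it defines the third group. RefSeq places it at chr1:207247903-207247924 on the minus strand (build GRCr8), and capitals mark its seed, bases 2 to 8. The sequence of the mimics themselves is not given in the sources used here.
rno-miR-483-5p: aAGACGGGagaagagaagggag

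Nrf2 is made continuously and is normally held by Keap1, an adaptor that sends it for degradation. Oxidants and electrophiles modify Keap1, and Nrf2 then accumulates, enters the nucleus, pairs with small Maf proteins and binds antioxidant response elements near its target genes. Much of this control acts on the Nrf2 protein, so the Nfe2l2 transcript level is not a measure of Nrf2 activity. Hmox1 encodes heme oxygenase 1, which breaks heme down to biliverdin, iron and carbon monoxide and is also induced by other stress pathways. Nqo1 encodes a quinone reductase that uses NADH or NADPH. Gclc and Gclm encode the catalytic and the modifier subunit of glutamate-cysteine ligase, the rate-limiting enzyme of glutathione synthesis.

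Expression was deposited as FPKM, a fragment count scaled to transcript length and library size, so levels of different genes can be set side by side. FPKM holds no read totals, and the low values gave relative depths of 0.65 to 1.23 against control replicate 1, from at most 89 features in each other library, too few for more than a rough estimate, so the depth is unknown. In bulk RNA, fewer cells that express a gene and less of its RNA per cell cannot be told apart. Features above 0 numbered 15792 to 16017 in the control libraries, 16506 to 17149 in the OGD/R libraries, and 16820 to 17242 in the mimics libraries. The control libraries stood apart from the other 6. Among those 6, OGD/R replicate 3 had a correlation across genes of 0.984 with mimics replicates 1 and 2, against 0.978 and 0.968 with the other OGD/R replicates, and mimics replicate 3 had 0.985 and 0.982 with OGD/R replicates 1 and 2, 0.975 with OGD/R replicate 3, and 0.982 and 0.981 with the other mimics replicates. OGD/R replicate 3 thus resembled mimics replicates 1 and 2 more than its own group, and mimics replicate 3 was about as close to OGD/R replicates 1 and 2 as to its own. The comparison of mimics with OGD/R is given both with and without them. Whether the labels of these 2 libraries were exchanged was not tested, and every value of that comparison takes the labels as given. Fold changes are differences of log2(FPKM + 0.1), tested with limma across the 19394 features that any library detected, and "passed" means an adjusted p under 0.05 over all of them. Between OGD/R and control, 46.0% of features passed, 16.1% higher and 29.8% lower. Features whose mean reached 1 FPKM or more, 11798 in number, are called expressed here. Their median log2 fold change was -0.23 on the values as they stand, -0.06 once quantile normalized and 0.01 once scaled to the upper quartile, and under these 3 scalings 35.1%, 45.2% and 53.4% of the passing features were higher.

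After OGD/R, 4 of the 5 genes rose and Nqo1 fell. Hmox1 rose 27.1-fold, Gclc 2.6-fold, Gclm 2.25-fold and Nfe2l2 1.31-fold, while Nqo1 was 1.75-fold lower. All 5 passed, against the background of 46.0%. For each of the 5, every OGD/R library lay on the same side of every control library, as was so for 71.5% of expressed features (23.3% higher, 48.2% lower). A change of 1 or more on the log2 scale together with p under 0.05 before adjustment, the cutoff used in the study, was reached by Hmox1, Gclc and Gclm, all higher, and by 18.0% of all features, 7.63% higher. The median log2 fold change of the 5 genes was 1.17. The directions held under each of the 3 scalings.

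**Figure D1:**
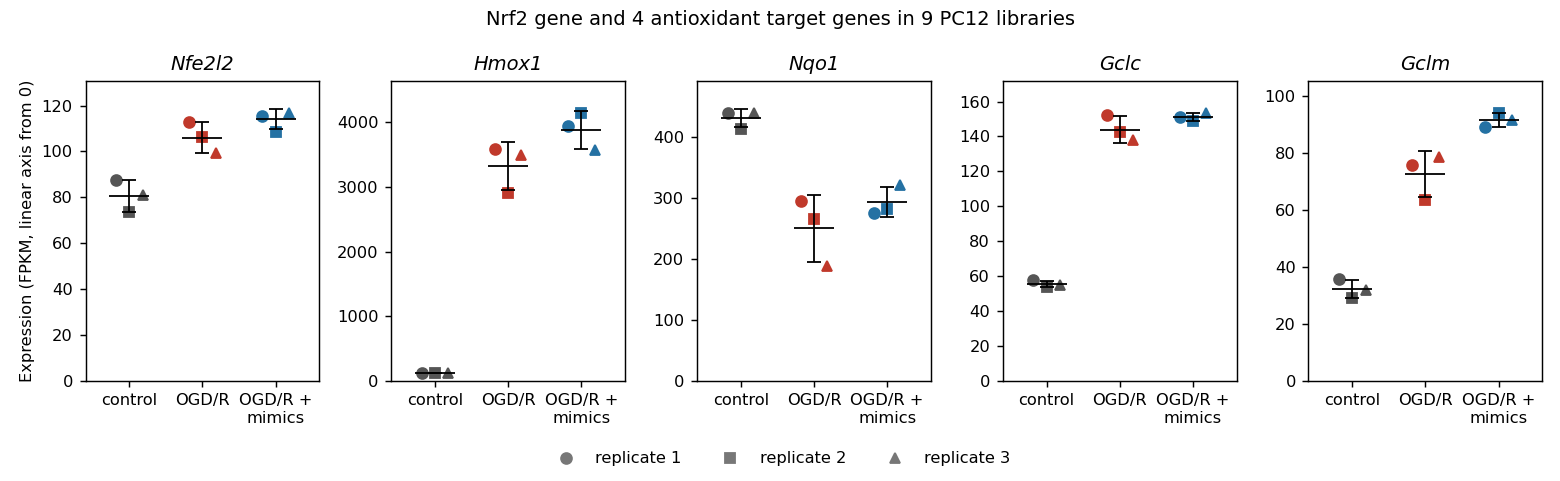
Expression of Nfe2l2, Hmox1, Nqo1, Gclc and Gclm (FPKM, linear axes from 0, each panel on its own scale) in the 3 libraries of each group, with the mean as a bar and the SD as whiskers. Hmox1 moved from about 122 FPKM in the controls to at least 2905.54 FPKM in the other 6 libraries, and Nqo1 was lower in all 6 than in the controls.

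Nfe2l2, the factor itself, was at 87.63, 73.61 and 80.86 FPKM in control replicates 1, 2 and 3 and at 112.71, 106.1 and 99.16 FPKM in the OGD/R replicates. The highest control library lay below the lowest OGD/R library by less than the range within either group. The means were 80.7 ± 7.01 and 106 ± 6.78 FPKM (SD, n = 3 each), a log2 fold change of 0.39 (standard error 0.08, adjusted p = 0.0024 from limma). This was a modest change among all features: 81.3% of the expressed features had a lower fold change, and by size in either direction it was at place 6975. Measured from the median of the expressed features, the log2 change was 0.63, and after upper-quartile scaling it was 0.64.

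Hmox1 was at 122.56, 124.26 and 120.36 FPKM in the controls, the tightest of the 5 genes there, with an SD of 1.60% of the mean. After OGD/R it was at 3588.59, 2905.54 and 3489.92 FPKM. Every OGD/R library was far above every control library. The means were 122 ± 1.96 and 3328 ± 369 FPKM (SD, n = 3 each), a log2 fold change of 4.76 (standard error 0.09, 95% interval 4.55 to 4.97, adjusted p = 6.65e-08 from limma). Ordered by log2 fold change from the highest, Hmox1 was at place 7 of the 11798 expressed features. It took 0.0187% to 0.0191% of the summed FPKM in a control library and 0.464% to 0.562% in an OGD/R library. By level it moved from places 891 to 928 among all features to places 12 to 15, so that heme oxygenase 1 was among the most abundant transcripts of the cells after OGD/R.

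**Figure D2:**
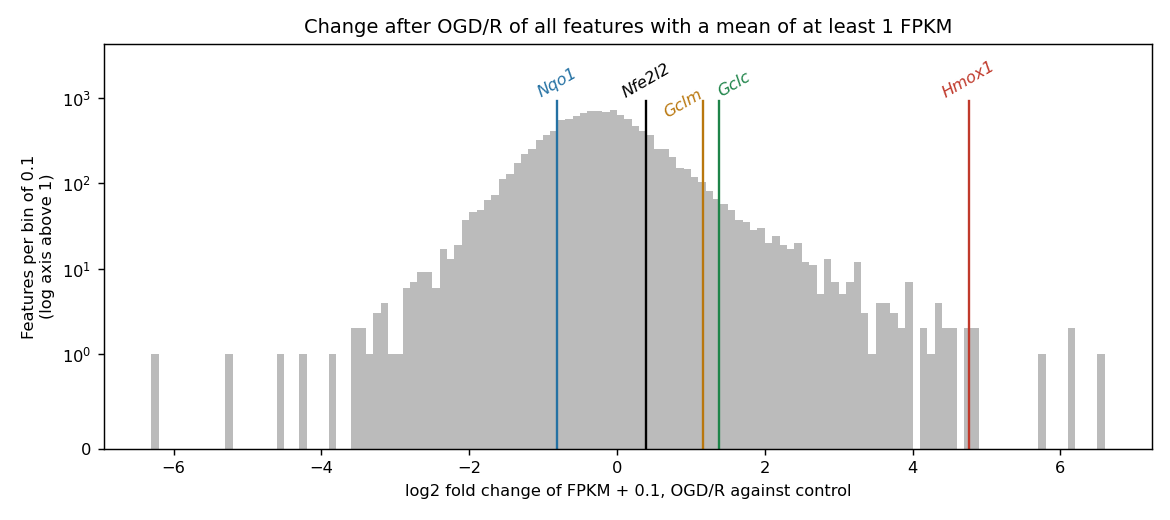
Number of features in each bin of 0.1 (vertical axis, logarithmic above 1) by their log2 difference between OGD/R and control (horizontal axis), for the 11798 expressed features, with a line at each of the 5 genes. Hmox1 lies in the far upper tail at 4.76, Gclc and Gclm lie in the upper shoulder at 1.38 and 1.17, and Nqo1 lies below the median at -0.81.

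Gclc, the catalytic subunit, was at 57.46, 53.99 and 54.93 FPKM in the controls and at 152.52, 142.76 and 137.71 FPKM after OGD/R. The groups lay far apart and each was tight, at 55.5 ± 1.79 and 144 ± 7.53 FPKM (SD, n = 3 each). Gclc rose by 1.38 on the log2 scale (standard error 0.05, adjusted p = 1.02e-06 from limma), at place 465 of the 11798 expressed features from the highest.

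Gclm, the modifier subunit, was the lowest of the 5 genes in every library. It was at 35.62, 29.08 and 31.96 FPKM in the controls and at 75.76, 63.6 and 78.7 FPKM after OGD/R, means of 32.2 ± 3.28 and 72.7 ± 8.01 FPKM (SD, n = 3 each). Gclm rose by 1.17 on the log2 scale (standard error 0.10, adjusted p = 2.58e-05 from limma), at place 630.

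Nqo1, the quinone reductase, went the other way. It was at 439.54, 413.62 and 439.13 FPKM in the controls and at 295.2, 266 and 188.98 FPKM after OGD/R. Each OGD/R library was below each control library, and OGD/R replicate 3 was the lowest of the 9. The means were 431 ± 14.8 and 250.1 ± 54.9 FPKM (SD, n = 3 each), a log2 fold change of -0.81 (standard error 0.15, adjusted p = 0.0018 from limma). Without OGD/R replicate 3 it was -0.62 (adjusted p = 0.000589 from limma). Because the median feature also fell on this scale, the fall of Nqo1 was smaller when measured from that median, at -0.58, and 19.6% of the 11798 features fell further.

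The sequence before the start site was set beside these changes for Gclm, which rose, and for Nqo1, which fell. RefSeq promoters (build GRCr8) were matched by symbol for 4 of the 5 genes; Hmox1 had no entry. For Gclm and Nqo1 the 250 bases before the start site are printed, 5′ to 3′ on the strand of the gene. The search was for the antioxidant response element core TGACNNNGC on both strands. Capitals mark a match. Gclm is at chr2:213031885-213032134 (plus strand) and Nqo1 at chr19:52220268-52220517 (minus strand).
Gclm: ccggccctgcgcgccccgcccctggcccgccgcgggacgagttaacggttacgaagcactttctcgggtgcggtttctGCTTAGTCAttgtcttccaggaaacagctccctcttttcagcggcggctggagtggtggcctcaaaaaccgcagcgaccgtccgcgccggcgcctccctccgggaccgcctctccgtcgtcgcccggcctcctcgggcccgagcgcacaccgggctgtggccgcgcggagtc
Nqo1: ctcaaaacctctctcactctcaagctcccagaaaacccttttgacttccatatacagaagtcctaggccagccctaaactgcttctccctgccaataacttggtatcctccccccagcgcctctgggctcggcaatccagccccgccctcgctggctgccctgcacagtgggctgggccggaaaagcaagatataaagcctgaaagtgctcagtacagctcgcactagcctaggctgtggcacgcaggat
Gclm held 1 match, 172 to 164 bases before the start site. It reads TGACTAAGC on the opposite strand and does not overlap the AP-1 core TGANTCA. Nqo1, which fell, and Gclc and Nfe2l2, which rose, all held 0 matches in the same window. Only for Gclm and Nqo1 is the start site the outermost one of the RefSeq gene table, as for 57.8% of all promoters in the table, so the windows of Gclc and Nfe2l2 lie at another start. The core was found in 10.1% of the 33469 promoters of the table, so a match is not rare. A match is a description of letters, and its absence says only that these letters are not in this window.

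Between mimics and OGD/R, 0 of the 5 genes passed, and 0.0% of all features did. Before adjustment, p was under 0.05 for 1333 features and for 2 of the 5 genes, Gclm and Hmox1. That number moved with the fit: after upper-quartile scaling all 5 were under 0.05 before adjustment, as were 1397 of the 19394 features, and with the replicate number as a block Gclm alone was, with 1044 features, the 95% interval of Hmox1 then running from -0.02 to 0.47. No gene passed after adjustment in either fit. The cutoff used in the study was met by 0 of the 5 genes and by 0.82% of all features. All 5 fold changes were above 0, from 0.07 for Gclc to 0.34 for Gclm on the log2 scale, with a median of 0.23, where the median of all expressed features was -0.02. The libraries overlapped for 4 of the 5 genes; those of Gclm did not, as was so for 9.94% of expressed features, 3.96% higher, as Gclm, and 5.98% lower.

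**Figure D3:**
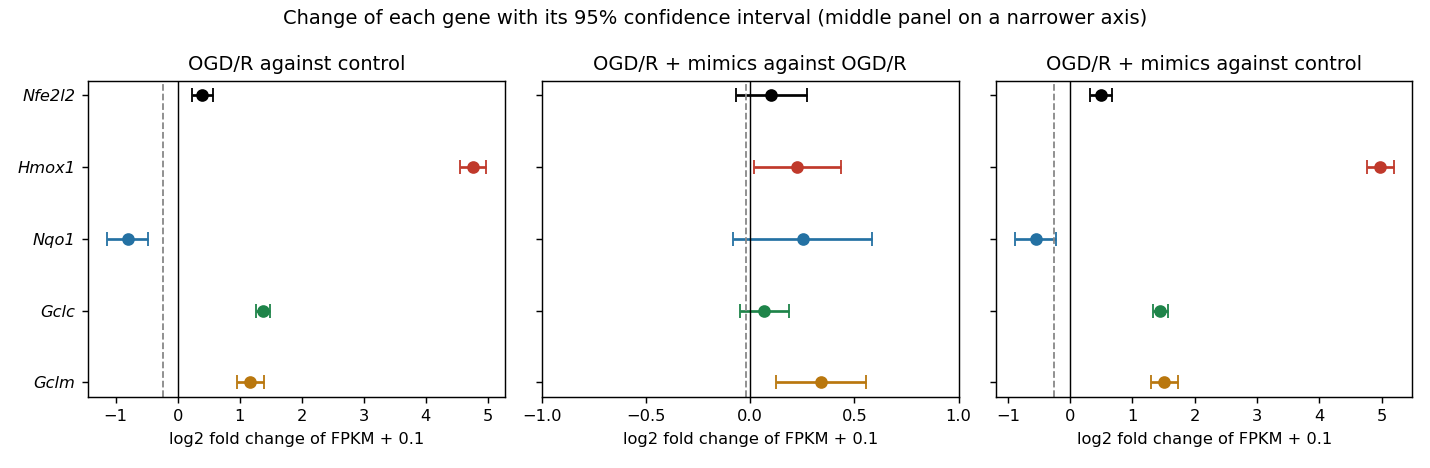
Log2 fold change of each gene (horizontal axis, FPKM + 0.1) with its 95% confidence interval in the 3 comparisons. The solid line marks 0 and the dashed line the median of expressed features, and the middle panel has a narrower axis. Against control, 4 genes lie above 0 and Nqo1 below it, and between mimics and OGD/R the 5 genes lie between 0.07 and 0.34.

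With mimics, Gclm was at 89.13, 94.08 and 91.59 FPKM, a tight group above the highest OGD/R library of 78.7 FPKM. Its log2 fold change against OGD/R was 0.34 (95% interval 0.12 to 0.56, unadjusted p = 0.00653, adjusted p = 0.592 from limma). Leaving out OGD/R replicate 2, the lowest OGD/R library for Gclm, gave 0.25. Hmox1 was at 3937.56, 4142.16 and 3564.68 FPKM with mimics. The lowest of these lay below OGD/R replicate 1, and the log2 fold change was 0.23 (95% interval 0.02 to 0.44, unadjusted p = 0.038, adjusted p = 0.72 from limma). Without OGD/R replicate 2, the lowest of its group, it was 0.13.

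The other 3 genes had intervals that included 0 on the values as deposited. After upper-quartile scaling, which moved the median of the expressed features to 0.05, the 3 intervals lay above 0: 0.05 to 0.59 for Nqo1, 0.02 to 0.33 for Nfe2l2 and 0.02 to 0.26 for Gclc on the log2 scale. Nqo1 was at 275.6, 282.6 and 321.55 FPKM with mimics, the first 2 within the OGD/R range and the last above it, with a log2 fold change of 0.25 (95% interval -0.08 to 0.58, adjusted p = 0.811 from limma). Nfe2l2 was at 115.39, 108.62 and 116.7 FPKM, with 0.10 (95% interval -0.07 to 0.27, adjusted p = 0.821 from limma). Gclc was at 151.41, 148.77 and 153.38 FPKM, with 0.07 (95% interval -0.05 to 0.19, adjusted p = 0.821 from limma).

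The comparison of mimics with OGD/R changed when OGD/R replicate 3 and mimics replicate 3 were both left out. Then 823 features passed, and 0 of the 5 genes was among them. These 2 libraries were picked by their resemblance to the other group in the same data, so leaving them out sets the groups further apart by itself. The values without them are a description and not a test of the mimics. The remaining libraries did not overlap for Hmox1 and Gclm, both higher, as was so for 21.5% of expressed features higher and 36.9% lower. Gclm had a log2 fold change of 0.40 (adjusted p = 0.1 from limma) and Hmox1 of 0.32 (adjusted p = 0.12 from limma). Nqo1 was at -0.0059 (adjusted p = 0.994 from limma), in place of 0.25 with all libraries and 0.06 without OGD/R replicate 3 alone, since both its lowest OGD/R value and its highest mimics value belonged to these 2 libraries. Nfe2l2 was at 0.03 and Gclc at 0.02, in place of 0.10 and 0.07, and with 1 library left out they ran from 0.05 and 0.03 without OGD/R replicate 3 to 0.15 and 0.11 without OGD/R replicate 1.

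Against control, the mimics libraries had the same 4 genes higher and Nqo1 lower. The control libraries are those used above, so these values stand beside the OGD/R values and are not a second test of them. All 5 genes passed, against 49.6% of all features (18.6% higher, 31.0% lower), and the libraries did not overlap for any of the 5, as for 75.3% of expressed features (24.7% higher, 50.6% lower). The study's cutoff was again met by Hmox1, Gclc and Gclm, all higher, and by 21.2% of all features, 9.63% higher. Hmox1, with a mean of 3881 ± 293 FPKM (SD, n = 3), was 31.6-fold higher than in the controls, at place 10 among the rises of the 11798 features, and at places 8 to 10 by level in the mimics libraries. Gclm was 2.85-fold higher at 91.6 ± 2.48 FPKM (SD, n = 3), and Gclc 2.72-fold higher at 151 ± 2.31 FPKM (SD, n = 3). Nfe2l2 was 1.41-fold higher at 114 ± 4.34 FPKM (SD, n = 3), with a log2 fold change of 0.50 (adjusted p = 0.000594 from limma), or 0.76 measured from the median and 0.81 after upper-quartile scaling.

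Nqo1, at 293 ± 24.8 FPKM with mimics (SD, n = 3), was 1.47-fold lower than in the controls (log2 fold change -0.56, adjusted p = 0.0113 from limma). This call depended on the scaling: after upper-quartile scaling the log2 fold change was -0.24 (adjusted p = 0.134 from limma), and with quantile normalized values -0.58 (adjusted p = 0.0104 from limma). Measured from the median of expressed features, it was -0.30, and 34.1% of them fell further.

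**Figure D4:**
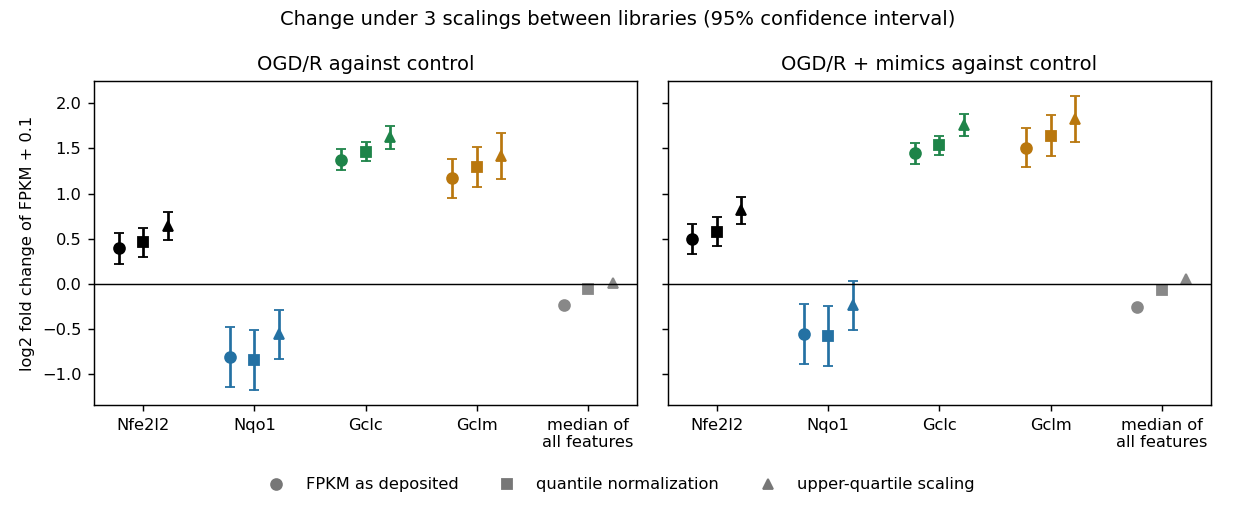
Log2 fold change with 95% confidence interval (vertical axis) of Nfe2l2, Nqo1, Gclc and Gclm under 3 scalings between libraries, for OGD/R (left) and mimics (right) against control, with the median of expressed features in grey. Nqo1 is below 0 in every case, and its interval reaches past 0 with mimics after upper-quartile scaling.

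The order of the 5 genes by level changed between groups. In the controls it was Nqo1, Hmox1, Nfe2l2, Gclc and Gclm from highest to lowest, with Nqo1 3.52 times the level of Hmox1. After OGD/R it was Hmox1, Nqo1, Gclc, Nfe2l2 and Gclm, with Hmox1 13.3 times the level of Nqo1, and the order with mimics was the same, with a ratio of 13.2. Within each group, neighbours in the order did not overlap in any library. Hmox1 and Nqo1 thus changed places at the top, and Gclc passed Nfe2l2.

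A ratio of 2 genes within a library is not changed by a factor applied to the whole library. The ratio of Hmox1 to Nqo1 was 0.279, 0.3 and 0.274 in the controls, 12.2, 10.9 and 18.5 after OGD/R and 14.3, 14.7 and 11.1 with mimics. The OGD/R and control values were 47.4-fold apart without overlap (exact permutation test, two-sided, p = 0.1, the smallest that 3 against 3 libraries allow, adjusted p = 0.15 over the 3 pairs of groups). Mimics and OGD/R overlapped, with a log2 difference of -0.03 (exact permutation p = 1.0). This value rests on the 2 libraries that resembled the other group: it was 0.20 without OGD/R replicate 3, 0.10 without mimics replicate 3 and 0.33 without both, when the groups did not overlap (exact permutation p = 0.333, the smallest that 2 against 2 libraries allow).

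The ratio of the modifier subunit Gclm to the catalytic subunit Gclc was 0.62, 0.539 and 0.582 in the controls, 0.497, 0.446 and 0.571 after OGD/R, and 0.589, 0.632 and 0.597 with mimics. Controls and OGD/R overlapped, with a log2 difference of -0.21 (exact permutation p = 0.2, adjusted p = 0.3). The overlap was of OGD/R replicate 3 with control replicate 2: the difference was -0.30 without the former and -0.26 without the latter, and the groups then did not overlap. Without OGD/R replicate 2 it was -0.12. Every mimics library was above every OGD/R library, with a log2 difference of 0.27 (exact permutation p = 0.1, adjusted p = 0.3). With 1 library left out it ran from 0.185 without OGD/R replicate 2 to 0.365 without OGD/R replicate 3. Without both OGD/R replicate 3 and mimics replicate 3, a choice made after seeing the data, it was 0.38 (exact permutation p = 0.333). Mimics and controls overlapped, with 0.07 (exact permutation p = 0.4, adjusted p = 0.4). With 1 library left out, that difference ran from 0.01 without control replicate 2 to 0.11 without control replicate 1.

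**Figure D5:**
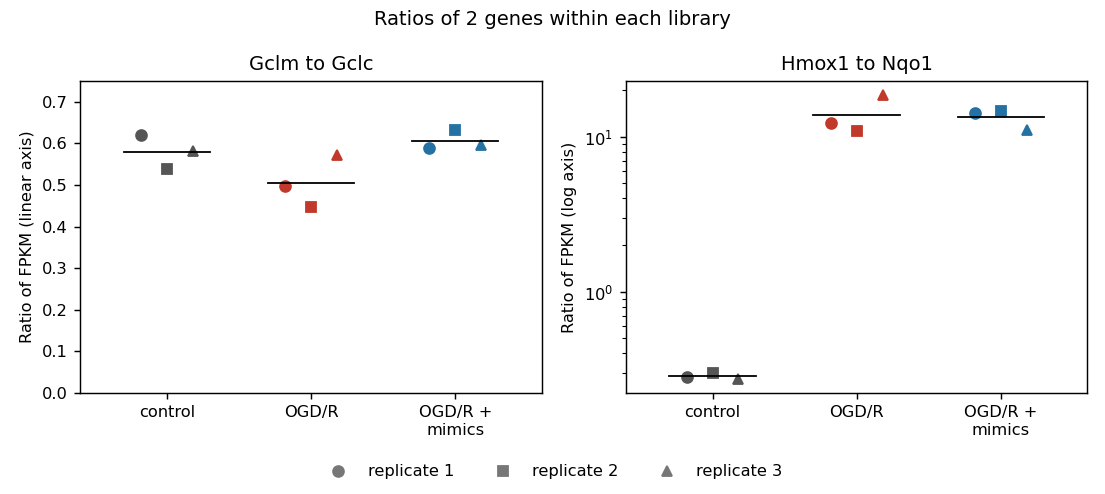
Ratio of FPKM of Gclm to Gclc (left, linear axis from 0) and of Hmox1 to Nqo1 (right, logarithmic axis) in each library, with the group mean as a bar. The Gclm to Gclc ratio stays between 0.446 and 0.632, and the Hmox1 to Nqo1 ratio is near 0.28 in the controls and at least 10.9 in the other 6 libraries.

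In the controls the SD was 1.60% to 10.2% of the mean, lowest for Hmox1 and highest for Gclm. After OGD/R it ran from 5.22% for Gclc to 21.9% for Nqo1, the latter 7.36% without OGD/R replicate 3. With mimics it ran from 1.53% for Gclc to 8.44% for Nqo1, the latter 1.77% without mimics replicate 3. Hmox1 was at 7.54% with mimics, or 3.58% without that library. The values with a library left out rest on 2 libraries each.

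For each gene, the features with the most similar pattern were found by Pearson correlation of log2(FPKM + 0.1) over the 9 libraries. All such values mainly reflect the difference between the controls and the other 6 libraries: 12.9% of the 11797 other features had a correlation of at least 0.9 with Hmox1. The closest to Hmox1 were ENSRNOG00000018266 (r = 0.9992), which was near 0 in the controls, at 0.12, 0.13 and 0.13 FPKM, and at 2.02 to 2.62 FPKM in the other libraries, and ENSRNOG00000014297 (r = 0.9991), which rose from 29.57, 29.61 and 29.98 FPKM to between 119.87 and 131.57 FPKM. The closest to Nqo1 were the assembled locus XLOC_013959 (r = 0.9846) and ENSRNOG00000001418 (r = 0.979), the latter at 45.26, 44.38 and 42.78 FPKM in the controls and 25.11 to 34.18 FPKM in the others. For Nqo1, 5.67% of features had a correlation of at least 0.9. The second closest feature to Gclc was the one closest to Hmox1. The files do not name these features.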

How the data were processed

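RNA from 9 PC12 libraries was sequenced by the authors, who removed poly-N, adapter and low-quality reads, ran RSEM, and deposited its estimates as FPKM with 2 decimals. The submitters' processing notes also name Bowtie2 2.3.3.1 and Cufflinks 2.2.1; the genome build is not given in the sources used here. The labels name 2 library kits without assigning them. The authors compared groups with edgeR, which needs counts, so FPKM were compared here with limma 3.58.1 (R 4.3.3) on log2(FPKM + 0.1), with a mean-variance trend, 9 libraries and 3 groups in 1 fit, and Benjamini-Hochberg adjustment over 19394 features. The fit was tested on simulated data. Ratios were compared by exact permutation tests over libraries.

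The 5 genes and the lists were chosen with earlier results of these data known. Named are the 5 genes and, for each, the 2 most correlated features, of which 4 are printed. Lists of 93 pathway and marker symbols were also drawn up, from which the genes that changed most would have been named. They could not be looked up, because the identifiers are unnamed. Alternatives were other pseudocounts, filters, scalings, fits of 2 groups, no trend, a replicate block and leaving out libraries. One detail of the cell culture is left out here.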

Additional observations from a re-analysis of the deposited data

How the results depend on the processing

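Of the 285 fold changes of the 5 genes recomputed under alternatives, 283 had the same direction and the same call. Against control, the exception was Nqo1 with mimics, whose log2 fold change was -0.24 (adjusted p = 0.134) after upper-quartile scaling. The adjusted p of Nqo1 ranged from 0.000447 to 0.00904 for OGD/R against control and from 0.000303 to 0.134 for mimics against control. Between mimics and OGD/R, 0 features passed with all libraries, against 9 with a pseudocount of 0.01, 7 without the mean-variance trend and 0 to 11 when 1 library was left out. Without OGD/R replicate 3 and mimics replicate 3, picked by their resemblance to the other group, 823 passed and Nqo1 changed sign to -0.0059. When 1 library was left out, the log2 fold change of Nqo1 ran from 0.06 without OGD/R replicate 3 to 0.38 without OGD/R replicate 1. None of the 5 genes passed under any of these. The log2 difference of the Hmox1 to Nqo1 ratio between mimics and OGD/R ran from -0.178 to 0.20 when 1 library was left out, and changed sign without mimics replicate 3 (0.10), OGD/R replicate 3 (0.20) or both (0.329), the last chosen after seeing the data. The cause was not tested.

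In the fit with a replicate block, the comparison of OGD/R with control had 8147 passing features, mimics with control 8915, and mimics with OGD/R 0 (1044 had p under 0.05 before adjustment), and no call among the 5 genes changed. Same-numbered libraries deviated together by correlations of -0.47 to 0.22, so the numbers do not show paired samples. FPKM keeps no read totals, so counting error could not be given.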
